A study of Mus musculus with 20 samples.

Results

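The genes described here encode the 5 subunits of the transcription factor NF-kB (Nfkb1, Nfkb2, Rel, Rela and Relb), 4 members of the IkB family that bind those subunits (Nfkbia, Nfkbie, Nfkbiz and Bcl3) and the ubiquitin-editing enzyme A20 (Tnfaip3). They were taken by symbol as a set of 10 among 56239 counted genes, and 9 of the 10 passed the filter on low counts and entered the test of 16601 genes. They were set together knowing that Tnfaip3 was low 30 min after induction and later came back, so its course is given as levels and fold changes without a p-value.

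NF-kB acts as a dimer of its subunits. In resting cells IkB proteins hold the dimers inactive, and signals from receptors of the TNF, Toll-like and antigen receptor families reach the IkB kinase, which marks IkB for degradation and frees the dimer (the canonical route). A second, noncanonical route works through the kinase NIK and processing of the Nfkb2 product to pair with RelB. Several inhibitors, among them IkBα and A20, are themselves encoded by NF-kB target genes and feed back on the pathway, and in developing B cells NF-kB has been tied to survival and to light chain gene rearrangement.

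Chromatin-associated RNA, which holds mostly transcripts still being made, was sequenced from the mouse pre-B cell line B3, transduced by retrovirus with Ikaros-ERt2. In this construct the zinc finger transcription factor IKZF1 (Ikaros) is joined to the hormone-binding part of the estrogen receptor, and 500 nM 4-hydroxytamoxifen (4-OHT) moves it into the nucleus. All 20 libraries came from this transduced line, with 2 untreated libraries at 0 h and 2 libraries at each of 30 min and 1, 2, 6, 12, 15, 18, 21 and 24 h of 4-OHT. The question was how transcription responds over time to nuclear IKZF1. No library was of cells without the construct given 4-OHT or of untreated cells at a later time, so effects of IKZF1, of 4-OHT and of time in culture cannot be told apart.

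Total counts ran from 33296158 to 46868954 per library, and levels are given as CPM, the usual counts per library total scaled with TMM factors. The counts include intronic reads, so a level follows the whole transcribed span of a gene. Of 11 B lineage markers, 10 averaged at least 1 CPM and Rag1 was at 0 counts in all libraries. Per kb of gene span the summed level of the 11 ran from 64.2 to 130 CPM, that of 8 T cell markers from 0.17 to 0.38 CPM and that of 8 myeloid markers from 1.02 to 3.04 CPM. Trbc1 and Itgam of those lists were also listed at 0 in all libraries, as was Myd88, an adaptor of Toll-like receptors, so a count of 0 in all libraries is not read here as absence of a transcript. The level of Ikzf1 was 4842 ± 4.43 CPM at 0 h and 8804 ± 599 CPM at 24 h (SD, n = 2), which does not check the labels, since 4-OHT acts on the location of the protein. Libraries of one time point differed most at 12, 18 and 21 h, where a chi-square on their counts was, per degree of freedom, 9.95, 14.9 and 4.78, against 1.26 to 2.58 at the other times. No source says whether libraries of one time point came from separate cultures, so p-values measure only the spread between these samples, which may be technical. In bulk RNA, fewer cells of a kind and less RNA per cell cannot be told apart.

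The letters around the start sites of these genes are shown first because NF-kB is known to bind promoters of its own subunit and inhibitor genes. RefSeq promoter windows of GRCm38.p6, each from 250 bases before to 50 after a start, were on hand for 7 of the 10 genes, while Nfkbiz, Nfkb1 and Relb had no entry. The NF-kB consensus, searched on both strands, was found in at least 1 window of 6 of the 7, all but Rela, and in 4.51% of all 32851 windows and 5.14% of 27025 genes. The following 30-base stretches, on the strand of the gene, show the match nearest the first listed start in capitals, for Tnfaip3 and for the other genes with a window that were called in some comparison.
Tnfaip3 (chr10:19015403-19015432, minus strand): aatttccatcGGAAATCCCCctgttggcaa
Nfkbia (chr12:55492657-55492686, minus strand): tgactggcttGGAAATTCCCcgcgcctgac
Nfkbie (chr17:45555584-45555613, plus strand): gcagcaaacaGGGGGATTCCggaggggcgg
Nfkb2 (chr19:46304716-46304745, plus strand): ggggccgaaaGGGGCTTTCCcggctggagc
Rel (chr11:23771042-23771071, minus strand): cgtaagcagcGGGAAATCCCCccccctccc

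Counted from the start, the match shown lay at -12 to -3 in Tnfaip3, -29 to -20 in Nfkbia, -106 to -97 in Nfkbie, -11 to -2 in Nfkb2 and -92 to -82 in Rel, where 2 matches overlap. The same windows held a further match with its first base at -125 in Tnfaip3 and at -39 in Nfkb2, and the windows of 2 later starts of Nfkb2 also held matches. IKZF1 binds DNA around the core GGAA or GGGA (TTCC or TCCC on the other strand), letters that the NF-kB consensus also holds. Each of the matches shown held 1 to 3 such cores. The window of Tnfaip3 with the matches held 14 cores in all, those of Nfkb2 13 or 14, Rela 13, Nfkbia 12, Nfkbie 11, Bcl3 11 and Rel 9, against a median of 7 over all windows and a 5th to 95th percentile of 2 to 13. A second window of Tnfaip3 (chr10:19011914-19012213) held 0 matches and 5 cores, fewer than the median. Genes that went down early (Tnfaip3, Nfkb2) and genes that went up (Rel, Nfkbia, Nfkbie) thus both had at least 1 window with the NF-kB consensus and more cores than the median window. A match of letters is a description and was not tested for binding.

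In the quasi-likelihood test of edgeR, with Benjamini-Hochberg adjustment over 16601 genes, a call took an adjusted p under 0.01 and more than a 2-fold change. Counts of calls leave out Tnfaip3, whose fall and return were known when the genes were set together, and so run over 8 genes. At 30 min 0 of the 8 were called in either direction by edgeR or by DESeq2, beside 0.41% of all genes down and 0.0542% up. At an unadjusted p under 0.05, 5 lay below 0 h and 2 (Rel and Nfkbia) above it. The share of all genes at that looser threshold was not taken, here or for the lists below. Such counts therefore do not set these genes apart from others. Rel was called up from 1 h on, at a time when 2.33% of all genes were up and 4.84% down. At 2 h Nfkb2 was called down, with 6.91% of all genes down and 6.25% up, and Rel was called up.

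By 24 h all calls among the 8 genes were upward. Nfkbia, Nfkbie, Rel and Relb were called up, 4 of 8, beside 20% of all genes, and 0 were called down, beside 20.1%. DESeq2 also called 0 down at 24 h, while 1 (Rela) lay below 0 h at an unadjusted p under 0.05. With library totals in place of TMM factors the median of all genes shifted by -0.26 at 24 h, and 62.1% rather than 50% of all calls there were down (60.4% rather than 49% at 21 h), with 3 NF-kB genes still called up. The share of all genes called up under that scaling was not taken, and the 20% above does not serve as its background. In between, Nfkbia joined Rel among the genes called up from 6 h (background 10.9% up and 9.13% down) through 12 h (13.2% and 9.92%), 15 h (15.3% and 13.1%), 18 h (19.1% and 17.6%) and 21 h (20.1% and 19.4%). The median log2 fold change of the 8 genes was -0.31 after 2 h and 0.95 after 24 h, against 0.026 and -0.011 over all genes tested. Over the whole course 5 of the 8 were called at some time, which is 62.5% beside 53.1% of all genes, and Nfkb1, Nfkbiz and Rela were called at none of the 9 treated times against 0 h.

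**Figure D1:**
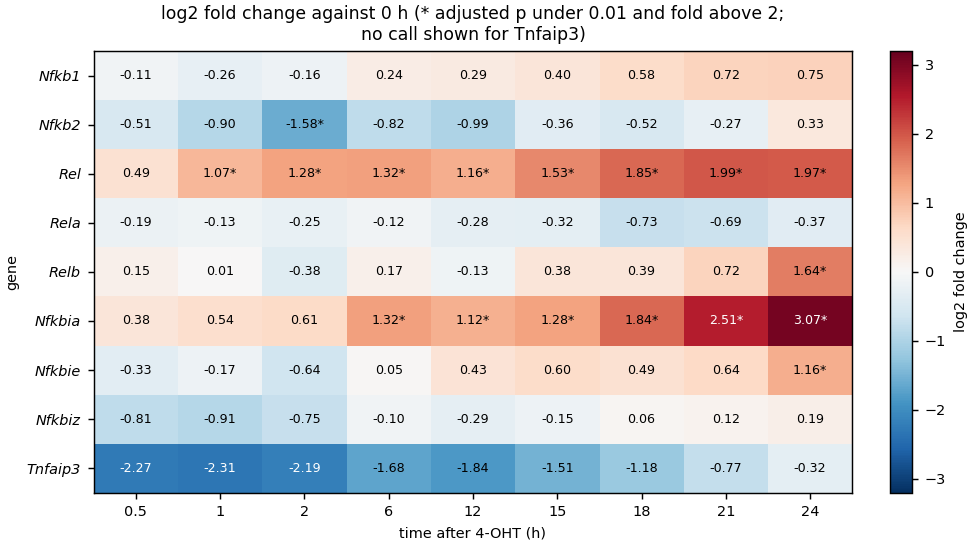
Log2 fold change against 0 h of the 9 tested NF-kB genes (rows) at the 9 times of 4-OHT (columns), with colour for the size and direction and a star where a gene was called (adjusted p under 0.01 and fold above 2, not marked for Tnfaip3). Tnfaip3 runs from -2.27 after 30 min to -0.32 after 24 h, while Rel and Nfkbia end at 1.97 and 3.07.

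Tnfaip3 (ENSMUSG00000019850, GRCm38 chromosome 10, 19000910 to 19015657, minus strand) encodes A20, which removes and rebuilds ubiquitin chains on signalling proteins and so damps the canonical route. Its libraries stood at 24.0 and 24.6 CPM at 0 h, 5.17 and 4.90 after 30 min, 4.86 and 4.94 after 1 h, and 5.27 and 5.34 after 2 h. The 6 libraries from 30 min to 2 h lay within 4.86 to 5.34 CPM, so the low level was reached by 30 min and stayed there. The log2 fold change was -2.27 after 30 min (standard error 0.0803), which is 4.83-fold lower. These values describe the fall for which Tnfaip3 was known.

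The return of Tnfaip3 began after 2 h and was not complete at 24 h. The pairs were at 7.73 and 7.46 CPM at 6 h, 7.10 and 6.48 after 12 h, 9.01 and 8.11 after 15 h, 10.8 and 10.6 after 18 h, 15.4 and 13.2 after 21 h, and 19.9 and 19.2 after 24 h. In percent of 0 h the mean went from 20.2 after 1 h to 31.2 after 6 h, 27.9 after 12 h, 44.1 after 18 h, 58.7 after 21 h and 80.3 after 24 h. Both 24 h libraries lay below both 0 h libraries and above every library from 30 min to 21 h. Its log2 fold change was -0.32 (standard error 0.0679) at 24 h against 0 h and 1.88 (standard error 0.0827) at 24 h against 2 h.

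**Figure D2:**
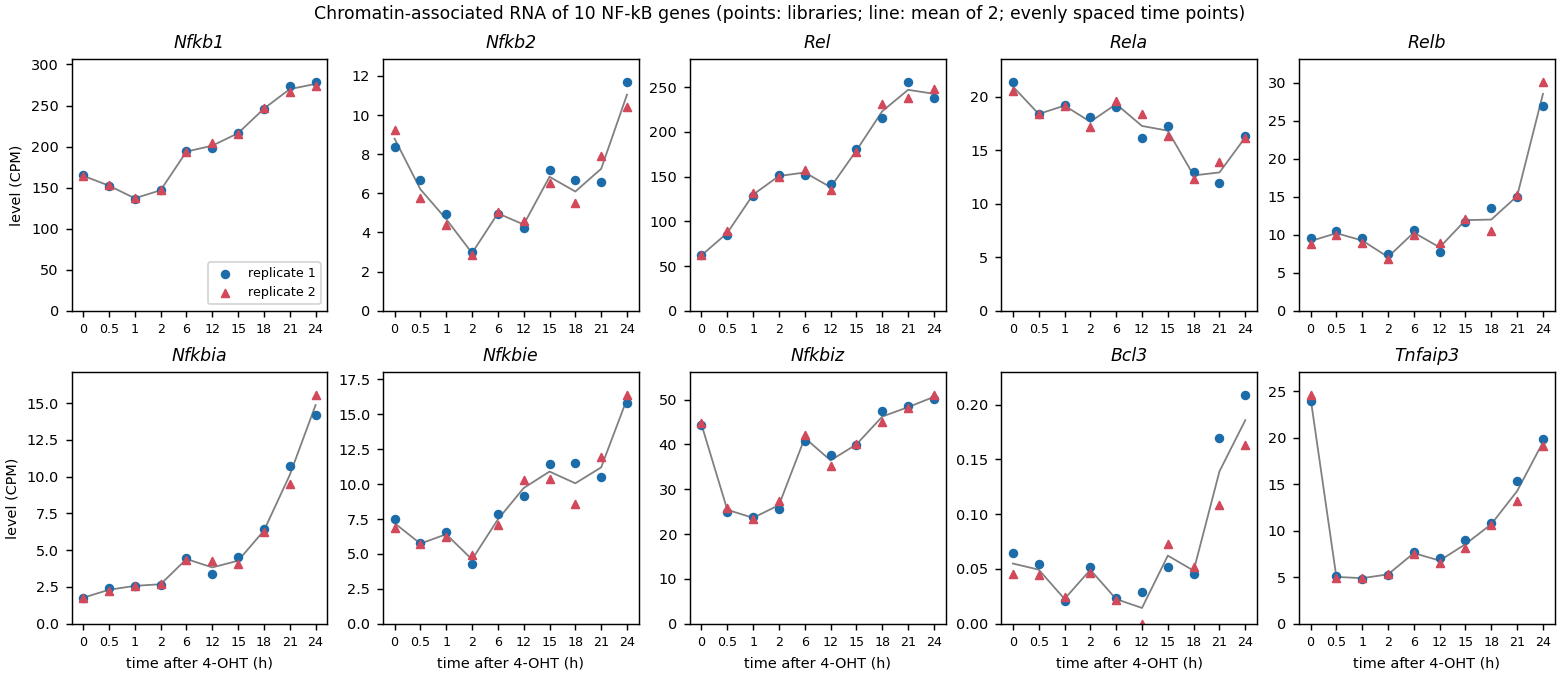
Level of each of the 10 NF-kB genes (CPM, 1 panel per gene with its own axis from 0) against hours of 4-OHT, the 10 times evenly spaced, with a point for each library and a line through the mean of the 2 libraries. Tnfaip3 drops from 24.3 to 5.04 CPM within 30 min and climbs to 19.5 CPM at 24 h, Rel rises from 61.9 to 243 CPM, and Bcl3 reaches at most 0.209 CPM.

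Among the IkB genes, Nfkbia moved most. Nfkbia (ENSMUSG00000021025, chromosome 12, 55489410 to 55492647, minus strand) encodes IkBα, which masks the nuclear import signal of NF-kB dimers and strips them from DNA. Its libraries stood at 1.77 and 1.76 CPM at 0 h, 2.41 and 2.21 after 30 min, 2.57 and 2.58 after 1 h, 2.64 and 2.73 after 2 h and 4.44 and 4.36 after 6 h. They went on from 3.39 and 4.26 CPM at 12 h and 4.53 and 4.03 after 15 h to 6.45 and 6.20 after 18 h, 10.7 and 9.50 after 21 h and 14.2 and 15.6 after 24 h. Every treated library was above both 0 h libraries. The log2 fold change was 0.61 after 2 h (adjusted p = 0.00103), short of 2-fold, 1.32 after 6 h and 3.07 after 24 h (standard error 0.108, adjusted p = 9.42e-17), an 8.42-fold rise. The call at 12 h (log2 fold change 1.12) rested on the second library of that time, since without it the value was 0.94 (adjusted p = 2.55e-05), short of 2-fold.

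Nfkbie (ENSMUSG00000023947, chromosome 17, 45555703 to 45563169, plus strand) encodes IkBε, an inhibitor that favours Rel and RelA dimers. Its libraries were at 7.52 and 6.89 CPM at 0 h, 4.28 and 4.93 after 2 h and 15.8 and 16.4 after 24 h. Both 2 h libraries lay below, and both 24 h libraries above, the libraries at 0 h. The value at 2 h (log2 fold change -0.64, adjusted p = 1.97e-04) stayed short of 2-fold, the rise at 24 h was 1.16 (standard error 0.109, adjusted p = 2.63e-09), and from 2 to 24 h it was 1.80 (adjusted p = 8.41e-12). With library totals in place of TMM factors the 24 h value was 0.90 and no longer called.

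Nfkbiz (ENSMUSG00000035356, chromosome 16, 55811375 to 55838899, minus strand) encodes IkBζ, a nuclear IkB protein that acts with p50 dimers at promoters. Its libraries were at 44.3 and 44.7 CPM at 0 h, 24.9 and 25.9 after 30 min, 23.8 and 23.4 after 1 h, 25.5 and 27.4 after 2 h and 40.8 and 42.1 after 6 h. The 6 libraries from 30 min to 2 h reached at most 27.4 CPM, below every other library. In log2 terms the difference was -0.81 after 30 min (adjusted p = 3.57e-10) and -0.91 after 1 h (standard error 0.0509, adjusted p = 2.77e-12), past the p threshold but short of 2-fold. Nfkbiz thus had its lowest level in the same 3 samplings as Tnfaip3, but was near its 0 h level by 6 h. Its values at 18, 21 and 24 h (0.056, 0.12 and 0.19) took the other sign when library totals were used.

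Bcl3 (ENSMUSG00000053175, chromosome 7, 19808462 to 19822770, minus strand) encodes a nuclear IkB protein that can lend p50 and p52 dimers an activating function. It was near the limit of detection, with 0 to 7 counts in a library, and did not enter the test. The libraries at 0 h held 3 and 2 counts, those from 30 min to 18 h at most 3, those at 21 h 5 and 4, and those at 24 h 7 and 6. No fold is given, since 0 h is at the floor of 3 counts. Antisense genes Gm16175 and Gm16174 overlap it, and without a stated strand setting their reads cannot be told apart.

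Of the subunits, Rel had the largest fold change against 0 h. Rel (ENSMUSG00000020275, chromosome 11, 23736847 to 23770970, minus strand) encodes c-Rel, the subunit typical of lymphoid cells and of activated B cells. Its libraries were at 62.0 and 61.8 CPM at 0 h, 85.2 and 88.7 after 30 min, 128 and 131 after 1 h, 152 and 150 after 2 h, 152 and 157 after 6 h and 141 and 135 after 12 h. A second climb followed, with 181 and 178 CPM at 15 h, 215 and 231 after 18 h, 256 and 238 after 21 h and 238 and 248 after 24 h. Every treated library exceeded both at 0 h. The log2 fold change was 0.49 after 30 min (standard error 0.0458, adjusted p = 1.39e-07), 1.28 after 2 h (adjusted p = 6.56e-16) and 1.97 after 24 h (standard error 0.0454, adjusted p = 5.82e-20), and the values at 21 and 24 h overlapped.

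Rela (ENSMUSG00000024927, chromosome 19, 5637483 to 5648130, plus strand), the gene of the ubiquitous subunit p65, went the other way and by less. Its libraries were at 21.4 and 20.5 CPM at 0 h, 18.1 and 17.2 after 2 h, 13.0 and 12.3 after 18 h, 12.0 and 13.9 after 21 h and 16.3 and 16.1 after 24 h. All treated libraries lay below both 0 h libraries. Its lowest log2 fold change was -0.73 after 18 h (standard error 0.0717, adjusted p = 6.41e-09), short of 2-fold, and at 24 h it was -0.37 (adjusted p = 7.02e-05).

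Relb (ENSMUSG00000002983, chromosome 7, 19606217 to 19629438, minus strand) encodes the partner of p52 in the noncanonical route. Its libraries were at 9.59 and 8.76 CPM at 0 h, 7.41 and 6.76 after 2 h, 13.5 and 10.5 after 18 h, 14.9 and 15.3 after 21 h and 27.0 and 30.1 after 24 h. The pair at 24 h stood above all others. Against 0 h its log2 fold change was -0.38 after 2 h (adjusted p = 0.00503), short of 2-fold, 0.72 after 21 h (adjusted p = 1.10e-06) and 1.64 after 24 h (standard error 0.0927, adjusted p = 4.49e-13). From 2 to 24 h it was 2.01 (adjusted p = 4.14e-14).

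Nfkb2 (ENSMUSG00000025225, chromosome 19, 46304320 to 46312385, plus strand) encodes p100, the precursor of p52, which in its uncut form also acts as an IkB. Its libraries stepped down from 8.36 and 9.23 CPM at 0 h to 6.66 and 5.75 after 30 min, 4.97 and 4.40 after 1 h and 3.03 and 2.87 after 2 h, with no overlap between successive pairs. They then stood at 4.93 and 5.02 CPM at 6 h, 4.23 and 4.59 after 12 h, 7.19 and 6.50 after 15 h and 11.7 and 10.4 after 24 h. The fall at 2 h was called (log2 fold change -1.58, standard error 0.123, adjusted p = 4.22e-10), a 2.98-fold drop. At 24 h the value was 0.33 (adjusted p = 0.00583), short of 2-fold, and between 2 and 24 h Nfkb2 rose by 1.90 (standard error 0.123, adjusted p = 5.87e-12). At 12 h its value of -0.99 lay at the edge of the fold threshold. The genes AC114539.1 and Psd overlap it on the other strand, and reads from them cannot be told apart without the strand setting.

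Nfkb1 (ENSMUSG00000028163, chromosome 3, 135584655 to 135691547, minus strand) encodes p105, the precursor of p50, and has the longest span of the 10 genes. Its libraries were at 165 and 164 CPM at 0 h, 136 and 138 after 1 h, 194 and 194 after 6 h, 217 and 216 after 15 h and 279 and 274 after 24 h. The pairs scarcely differed within a time, by a factor of at most 1.03. The log2 fold change was -0.26 after 1 h (standard error 0.0319, adjusted p = 5.66e-07) and 0.75 after 24 h (standard error 0.0316, adjusted p = 2.47e-15), both short of 2-fold. Gm43430 lies within its span on the same strand.

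Between 2 and 24 h, with no 0 h library in the contrast, 4 of the 8 genes were called up (Nfkb2, Nfkbia, Nfkbie and Relb) beside 16.2% of all genes, and 0 called down beside 16.6%, with 0 down by DESeq2 as well and 0 at an unadjusted p under 0.05. Rel, already high at 2 h, had a value of 0.69 there (adjusted p = 3.61e-12), short of 2-fold. Against 30 min, 4 were called up at 24 h (Nfkbia, Nfkbie, Rel and Relb) beside 20% of all genes. Nfkbiz, at 0.99 there (adjusted p = 9.74e-14), lay at the edge of the fold threshold. DESeq2 called 5 up, with Nfkbiz (1.01) among them.

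Per kb of gene span, the scale on which the NF-kB genes are compared with each other, the order at 0 h was Rela (1.97 ± 0.0551 CPM per kb, SD, n = 2), Rel, Tnfaip3, Nfkbiz, Nfkb1, Nfkb2, Nfkbie, Nfkbia, Relb and Bcl3 (0.00384 CPM per kb). The libraries of neighbouring genes in that order did not overlap, but Tnfaip3 (1.65 ± 0.0292) and Nfkbiz (1.62 ± 0.0110) were only 1.09 times the larger SD apart. At 24 h the order began with Rel (7.11 ± 0.205 CPM per kb) and Nfkbia (4.59 ± 0.301), and Rela was the sixth. Nfkb2 (1.37 ± 0.114), Tnfaip3 (1.32 ± 0.0350) and Relb (1.23 ± 0.0956) then differed from their neighbour by less than 1 SD. Nfkbia climbed from the eighth to the second place, and Tnfaip3 went from the third to the eighth.

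The 5 subunit genes can be set against each other as shares of their summed level per kb, which the scaling between libraries does not touch. The share of Rel was 26.7% in both libraries at 0 h and 54.4% ± 0.403 after 2 h, 57.8% ± 2.19 after 21 h and 51.5% ± 0.954 after 24 h (SD, n = 2). Rela had 28.9% ± 0.752 at 0 h, 20.4% ± 0.399 after 2 h and 11.0% ± 0.193 after 24 h. The ratio of Rel to Rela was 0.922 ± 0.0243 at 0 h, 1.48 ± 0.0393 after 30 min, 2.66 ± 0.0718 after 2 h, 6.01 ± 0.926 after 21 h and 4.67 ± 0.169 after 24 h, so that Rel passed Rela within 30 min. Nfkb2 had 16.0% ± 1.16 at 0 h, 4.50% ± 0.0929 after 2 h and 9.92% ± 0.926 after 24 h. Relb, the smallest share at 0 h, had 5.81% ± 0.361 then and 8.90% ± 0.598 after 24 h, and Nfkb1 had 22.6% ± 0.0513 and 18.7% ± 0.432. With 2 libraries a time no test of these shares was run. They are shares of chromatin-associated RNA, not of protein.

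**Figure D3:**
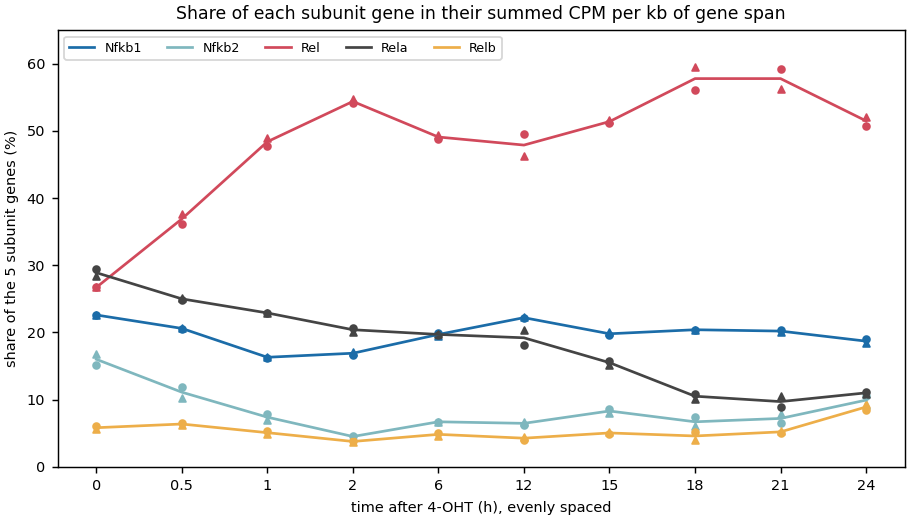
Share of each of the 5 NF-kB subunit genes in their summed level per kb of gene span (percent, vertical axis) against the 10 times (horizontal axis, evenly spaced), with points for libraries and lines through the mean of 2. Rel takes 26.7% at 0 h and between 51.4% and 57.8% from 15 h on, while Rela goes from 28.9% to 11.0%.

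By Pearson correlation of mean log2 CPM over the 10 time points, among 12055 genes averaging at least 1 CPM, the gene most like Tnfaip3 was Elk3 (r = 0.96), followed by AC132957.1 (0.93), Zfp422 (0.92), Ube2a (0.92) and Mrpl52 (0.91). For Rel they were Mtmr12, Mkrn1 and St8sia4 (r of 0.99 to 1.00 after rounding), for Nfkbia Cyth3 and Map3k1 (0.99 each) and for Relb Acads, Nectin2 and Ccs (0.97, 0.96 and 0.96). For Nfkb2 they were Wnt6 (0.97), Cog2 (0.96) and Bin1 (0.95), for Nfkbie Ubxn1, Vps18 and Coq8a (0.98 each), for Nfkbiz Plscr1 (0.96), Zfp410 and Zfp987 (0.95 each) and for Nfkb1 Prkx, Lyrm2 and Tmeff2 (0.99 each). These values describe 10 points that share libraries and an order in time, in which many genes with a steady rise are alike.

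The rest of the pathway was read from 4 lists, each given by its counts beside the share of all genes. Of 26 ligands and receptors, 17 were tested and their median log2 fold change was -0.86 after 2 h and -0.70 after 24 h. Called down at 2 h were 7, or 41.2% beside 6.91% of all genes (Cd180, Cd40, Lta, Tlr4, Tnf, Tnfrsf13b and Tnfrsf8) and 0 up, with 0 up by DESeq2 and 1 above 0 h at an unadjusted p under 0.05. Cd40 (0.694 CPM at 0 h and 0.0970 at 2 h) passed the count filter only through its 0 h libraries. It could thus enter the test only as a fall. Tnfrsf8 (0.824 CPM at 0 h and 0.013 at 2 h) was also near the floor. Both count fully in the 41.2%, although their later values rest on few counts, and the share without them was not taken. At 24 h 7 were called down (41.2% beside 20.1%), again with Cd40 and Tnfrsf8 among them. Called up were 4 (Ltb, Tlr1, Tlr6 and Tlr9), a share near that of all genes (23.5% beside 20%). Tlr1 (0.0883 CPM at 0 h and 2.48 at 24 h) passed the count filter only through later libraries, where it was high. With 10 counts required in every library, 2 were called up, from fewer tested genes, and the share of all genes under that filter was not taken. Tnf, the cytokine that drives the canonical route, went from 8.57 ± 0.778 CPM at 0 h to 3.92 ± 0.349 after 30 min and 1.41 ± 0.0363 after 2 h (log2 fold change -2.60, adjusted p = 7.57e-12). It was already called down at 30 min (-1.13, adjusted p = 2.57e-06) and was lower still at 24 h, at 0.816 ± 0.195 CPM (log2 fold change -3.40, adjusted p = 2.59e-13).

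Lta, the lymphotoxin gene next to Tnf on chromosome 17, fell likewise from 4.68 to 0.946 CPM at 2 h and was at 1.05 CPM at 24 h. Ltb (chromosome 17, 35194439 to 35196320), which encodes the membrane partner of lymphotoxin and lies on the other side of Tnf (35199381 to 35202007), was at 0.396 ± 0.0820 CPM at 0 h and rose to 3.83 ± 0.114 after 24 h (log2 fold change 3.26, standard error 0.206, adjusted p = 3.16e-12). These neighbours thus went in opposite directions. Among receptors, Tlr4, which senses lipopolysaccharide, fell by 1.66 on the log2 scale at 24 h, whereas Tlr9, which senses unmethylated DNA, rose by 1.69 and Tlr6 by 2.14. Cd180 went from 303 CPM at 0 h to 118 CPM after 2 h (log2 fold change -1.36, adjusted p = 4.34e-17) and was at 162 CPM at 24 h.

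Of 28 kinases and activating adaptors, 26 were tested, and their shares were near or below those of all genes. At 2 h 1 was called down (3.85% beside 6.91%) and 0 up beside 6.25% (0 also by DESeq2, 5 above 0 h at an unadjusted p under 0.05), and at 24 h 2 were called down (7.69% beside 20.1%) and 6 up (23.1% beside 20%), with a median of -0.035 after 2 h and 0.25 after 24 h. The gene down at 2 h was Map3k8, the kinase bound to p105, at 2.35 CPM at 0 h, 0.469 after 2 h and 5.74 after 24 h (log2 fold changes -2.33 and 1.29). Traf6, the ubiquitin ligase of the Toll-like route, went from 40.5 to 66.4 and 171 CPM (2.07 after 24 h, adjusted p = 5.29e-19), and Btrc, which targets IkB for destruction, rose by 1.36. Traf5 and Tab1 fell by 1.54 and 1.20 after 24 h.

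Of 22 other negative regulators, 21 were tested. At 2 h 1 was called down, Nfkbid (4.76% beside 6.91% of all genes), and 0 up beside 6.25%, with 0 up by DESeq2 and 12 above 0 h at an unadjusted p under 0.05. At 24 h 9 were called up (42.9% beside 20%) and 3 down (14.3% beside 20.1%), with a median log2 fold change of 0.84. With library totals in place of TMM factors 4 were called up, and the share of all genes under that scaling was not taken. Birc3, a ubiquitin ligase that holds NIK low and is itself a target gene, went from 49.0 to 169 CPM (1.79, adjusted p = 6.38e-20), while Traf3, its partner in that complex, fell from 120 to 48.9 CPM (-1.29, adjusted p = 4.53e-15). Map3k14, which encodes NIK and was picked after its values were seen, went from 54.1 CPM at 0 h to 105 after 2 h and 130 after 24 h. Nfkbid, an IkB-like nuclear protein, fell from 19.8 to 8.35 CPM at 2 h and 5.09 after 24 h and was thus lower at 24 h than at 2 h, where Tnfaip3, Nfkb2 and Nfkbie were higher. Usp18 and Rnf11 rose by 2.07 and 1.70 after 24 h, and Nkrf fell by 1.22.

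Of 33 known target genes of NF-kB, 19 were tested, 3 of which are also negative regulators above (Nfkbid, Birc3 and Tnip1). At 2 h 5 were called down (26.3% beside 6.91% of all genes) and 2 up (10.5% beside 6.25%), with a median of -0.77. At 24 h 6 were down (31.6% beside 20.1%) and 7 up (36.8% beside 20%), with a median of 0.043. The genes down at 2 h include Ier3, near the floor at 0.464 CPM at 0 h and 0.0377 after 2 h. Those down at 24 h include Il10, at 0.376 CPM at 0 h, 0.371 after 30 min and 0.0854 after 24 h. Il10 reached the count filter through early libraries, where it was high, and so could hardly enter other than as a fall. The shares without these genes were not taken. Fas, the death receptor gene, rose from 1.02 to 3.18 CPM at 2 h and 11.5 after 24 h (3.49 after 24 h, adjusted p = 2.22e-17), and Irf1 was up at 2 h (1.34). Icam1, an adhesion molecule, went from 10.8 to 57.4 CPM and Cxcr5, a chemokine receptor of B cells, from 1.75 to 8.51 CPM at 24 h. Bcl2l1, which encodes the survival protein BCL-XL, fell from 759 to 309 CPM at 2 h and was at 1051 CPM at 24 h. Cd44 and Ccl3 fell by 1.33 each at 2 h, and at 24 h Slc3a2 fell by 2.13 and Plek by 1.79. The summed CPM of the myeloid markers, not scaled per kb, was 7.21 CPM at 0 h and 3.01 CPM at 24 h, and its part in these values was not tested.

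**Figure D4:**
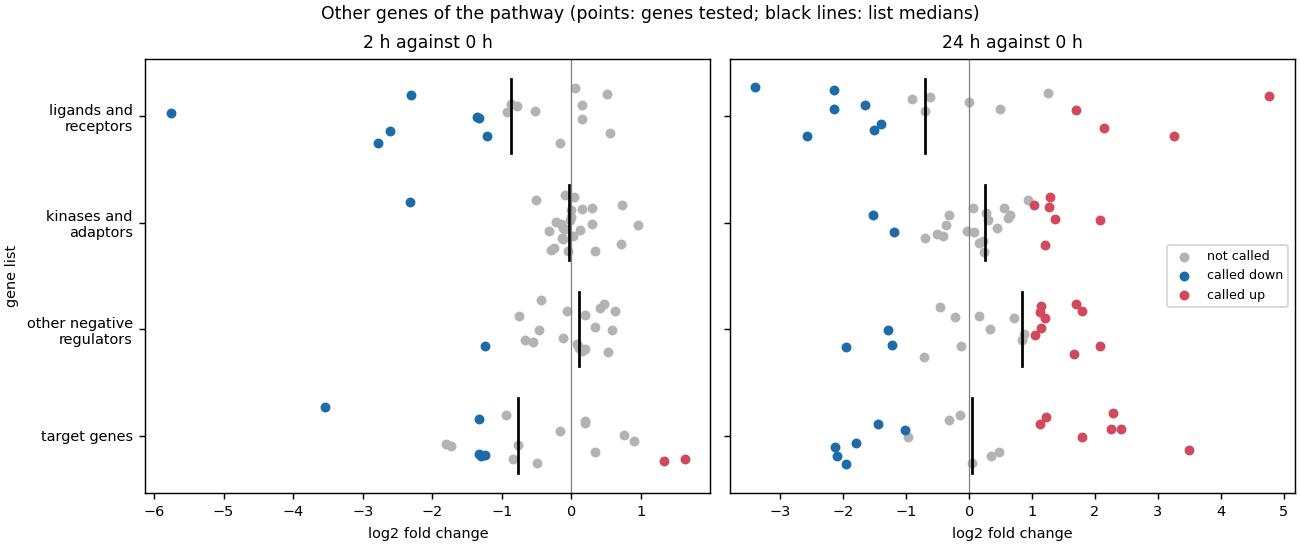
Log2 fold change against 0 h (horizontal axis) of each tested gene (points, blue where called down and red where called up) in the 4 pathway lists at 2 h (left) and 24 h (right), with a black line at the median of each list. Medians go from -0.86 to -0.70 for ligands and receptors, -0.035 to 0.25 for kinases and adaptors, 0.11 to 0.84 for negative regulators and -0.77 to 0.043 for target genes.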

How the data were processed

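Chromatin-associated RNA was sequenced as 20 libraries with a directional, rRNA-depleted kit. The authors aligned reads to mm10 (GRCm38) with nf-core/rnaseq and STAR and deposited raw counts per gene from featureCounts, introns included, without normalization. The annotation release, strand setting and treatment of shared reads are not given in the sources used here, and the submitters' processing notes also name CASAVA 2.17. Times and replicate numbers came from the sample labels.

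The 16601 genes that reached 10 counts in 2 or more libraries were fitted with edgeR 4.0.16 in R 4.3.3 (TMM factors, time as a factor over all 20 libraries, quasi-likelihood test, Benjamini-Hochberg adjustment), calling an adjusted p under 0.01 with a fold above 2. Every adjusted p printed comes from this fit unless another is named. Depth was 33296158 to 46868954 counts (median 40943260), and the reads carry no molecular identifiers. Alternatives were DESeq2 1.42.0, other scalings, filters, thresholds and samples, and a replicate block. GENCODE M21 positions were found for 55240 of 56239 gene IDs, and gene spans are from it. The genes, lists and tests were chosen with earlier results of these data known. In each list, up to 3 genes per direction with the largest called change at 2 h and at 24 h, averaging at least 1 CPM, are named with values, together with the genes most correlated with each NF-kB gene (5 for Tnfaip3, 3 for the others whose log2 range exceeded 1), of which 1 gene is not reported here, and those of Bcl3 are left out for its low counts. The script was tested on simulated data.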

Additional observations from a re-analysis of the deposited data

Results flagged for a closer look

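Between 2 h and 24 h of 4-OHT, the difference between the early and the late change against 0 h was itself tested in the same edgeR fit. Of the 8 tested NF-kB genes other than Tnfaip3, 4 were called up (adjusted p under 0.01 and more than 2-fold), beside 16.2% of all genes. The log2 fold change from 2 to 24 h of the 4 was 1.90 for Nfkb2, 1.80 for Nfkbie, 2.47 for Nfkbia and 2.01 for Relb, and each was higher in both 24 h libraries than in both 2 h libraries. Nfkb2 moved from a call below 0 h at 2 h to no call at 24 h, and Nfkbia, Nfkbie and Relb from no call at 2 h to a call above 0 h at 24 h. For Tnfaip3, whose return was known when the genes were set together, the value of 1.88 is a description.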

How the results depend on the processing

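Of the member and list counts, 298 stayed within 1.5 times the reported count in other settings and 6 moved, and with a library left out 149 stayed and 3 moved. Of the fold changes of the 9 genes, 779 kept their direction and their side of the thresholds in other settings, while 5 changed sign, 7 gained a call and 1 lost it. With a library left out 387 kept both, 4 changed sign, 4 gained a call and 1 lost it. The member counts and fold changes above include Tnfaip3, for which they only describe known values. At 12 h Nfkb2, which lay at the fold threshold, was called down with DESeq2, with its size factors in edgeR and without a filter. With a library left out its log2 fold change at 12 h ran from -1.07 to -0.92. That of Nfkbia at 12 h was 0.94 without 12 h replicate 2. For Nfkbiz at 24 h against 30 min the value of 0.99 became 1.01, and was called, with DESeq2. The same held with its size factors in edgeR and with 10 counts required in every library. Without 30 min replicate 2 it was 1.02, and without 24 h replicate 1 it was 1.01. With library totals only, 4 negative regulators were called up at 24 h rather than 9. The log2 fold change of Tnfaip3 at 21 h was then -1.01 rather than -0.77. Scaling by library totals moved the median of all genes by -0.23 at 21 h and -0.26 at 24 h, and 62.1% rather than 50% of calls at 24 h were then down. Requiring 10 counts in every library left 2 ligands and receptors called up at 24 h rather than 4, since fewer genes were tested. The shares of all genes called up with library totals or with this filter were not taken. Values that changed sign were not called in any setting. They were Nfkbiz with library totals (-0.069 at 18 h, -0.11 at 21 h and -0.072 at 24 h), Relb at 1 h (-0.0072 with library totals, -0.0043 with only 4 libraries in the fit, -0.050 to 0.080 with a library left out) and Nfkbie at 6 h (-0.030 to 0.13 with a library left out, with -0.014 without 0 h replicate 2). Deviations of same-numbered libraries correlated at -0.00129 on average over 45 pairs of times, of which 24 were positive, with a range from -0.439 to 0.237. The mean shows no pairing by number common to all times. Whether some times share a culture or batch was not tested. The replicate block gave 66 genes down and 8 up at 30 min in place of 68 and 9, no member count changed, and no member's log2 fold change moved by more than 0.00479. For Bcl3 the depth was too low for any comparison.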
